A study of Orbilia oligospora with 9 samples.

Results

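Hyphae of 2 mutants of Orbilia oligospora, a soil fungus better known as Arthrobotrys oligospora that traps nematodes on sticky loops of hyphae, were compared as 1 pooled group of 6 RNA-seq libraries with 3 wild-type libraries. Of the 12901 loci in the deposited table, 10318 (80.0%) had an FPKM of 1 or more in at least 3 of the 9 libraries and were tested, and the other 2583 were not. FPKM is a count of fragments scaled to the length of the locus and to the size of the library, so that levels of different loci can be set side by side. The 3 groups of 3 libraries were Aomdv1 mutant, Aovps1 mutant and wild type (WT), all of strain ATCC 24927. The agar was TYGA (tryptone, yeast extract, glucose), kept at 28 °C for 5 days, and all cultures carry the same treatment label, aerial hyphae differentiation. The sample labels describe both mutants as knockdowns and the series' design text as deletion mutants, and the number of independent transformants is not given. The replicates are called biological, but separate plates are not mentioned, and the spread behind each p-value is that between these libraries. At the edge of the filter, the 347 loci that reached an FPKM of 1 in exactly 3 libraries had a median mean level of 0.937 FPKM, and the 386 that reached it in exactly 2 had 0.688.

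Mitochondria divide when a dynamin-related GTPase is drawn to their outer membrane and pinches it. In baker's yeast the adaptor Mdv1 links the membrane anchor Fis1 to the dynamin Dnm1, and Vps1 is a second dynamin-related GTPase known for its part in vacuolar sorting and endocytosis. Divided fragments can be taken into the vacuole by autophagy, and proteins can be broken down one at a time by the proteasome. The study's title names mitochondrial shape, mitophagy, conidia, traps and energy supply as what the pair is needed for.

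The libraries had an estimated 16000000 to 19350000 fragments each, read from the step size of low FPKM values. Log2 values of 5 mutant libraries correlated with each other across loci at 0.942 to 0.991, and those of mutant with WT libraries at 0.791 to 0.892. Library 3 labelled Aomdv1 mutant stood apart, at 0.859 to 0.884 with the other 5 mutant libraries and with 1768 loci at FPKM 0, against 599 to 1158 in the other libraries. WT library 3 correlated at 0.896 to 0.906 with the other WT libraries, which correlated with each other at 0.981. The loci tested were as a whole shifted upward in the mutants, with a median log2 fold change of 0.19, which was -0.03 after median-ratio scaling and 0.04 after quantile normalisation. Changes below are to be read relative to that shift. In bulk RNA, fewer cells of a kind and less RNA per cell cannot be told apart. How reads shared by near-identical copies or by overlapping loci were counted, and whether counting used the strand, is not given.

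Transcripts of both targeted genes were present in the libraries labelled as their mutants, so the libraries are named by their labels throughout. MDV1 and VPS1 are taken as AOL_s00097g206 and AOL_s00007g394, since the labels give no locus. Of 3 tested loci with a Swiss-Prot hit to VPS1, AOL_s00007g394 is the one whose KEGG entry is also VPS1. MDV1 had 127, 118 and 82.5 FPKM in libraries 1, 2 and 3 labelled Aomdv1 mutant, and VPS1 had 44.3, 22.6 and 46.9 FPKM in libraries 1, 2 and 3 labelled Aovps1 mutant. MDV1 (AOL_s00097g206), the fission adaptor, had 82.5, 117 and 149 FPKM as the lowest, median and highest value of the 6 mutant libraries, against 133, 116 and 114 FPKM in WT libraries 1, 2 and 3. The groups overlapped, and the pooled mean was 95.9% of the WT mean (log2 fold change -0.08, 95% interval -0.6 to 0.44, adjusted p = 0.875; exact permutation p = 0.762, two-sided). VPS1 (AOL_s00007g394) had 22.6, 42.8 and 55.05 FPKM as the lowest, median and highest value of the 6 mutant libraries, against 105, 72.7 and 83.1 FPKM in WT libraries 1, 2 and 3. All 6 mutant libraries lay below all 3 WT libraries, with a pooled mean of 47.1% of the WT mean (log2 fold change -1.1, 95% interval -1.76 to -0.45, adjusted p = 0.0299). An exact permutation test of the 6 against 3 values gave p = 0.0238, the smallest that the 84 arrangements allow two-sided. The VPS1 call was lost without WT 1, WT 2, library 1 labelled Aomdv1 mutant or library 1 labelled Aovps1 mutant, at adjusted p = 0.126, 0.0698, 0.0556 and 0.0553 in that order. The other tested VPS1 hits, AOL_s00004g65 (KEGG entry dynamin-like) and AOL_s00043g720 (KEGG entry a Golgi complex subunit), had log2 fold changes of -0.03 (adjusted p = 0.971) and -0.43 (adjusted p = 0.329).

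Pooling the mutants called 1544 loci, 15.0% of those tested, at an adjusted p under 0.05 (limma, two-sided, Benjamini-Hochberg over all 10318 loci). Of these, 942 rose in the mutants (9.13% of the tested loci) and 602 fell (5.83%). At an unadjusted p under 0.05 the count was 2935. The split of 942 risen and 602 fallen became 645 and 754 after median-ratio scaling and 747 and 718 after quantile normalisation, so the excess of risen loci depended on the scaling. Of the called loci, 1360 changed at least 2-fold. The median log2 fold change was 1.48 among risen loci and -1.76 among fallen ones, and 64 risen and 43 fallen loci passed 4 on that scale. All 6 mutant libraries lay above all 3 WT libraries at 1219 loci (11.8%) and below them at 695 (6.74%), and 1396 of the called loci were among these. Single libraries moved the count of calls, to 828 without WT 2 and to 2469 without library 3 labelled Aomdv1 mutant. Risen loci numbered 538 without WT 1, 424 without WT 2, 624 without library 1 labelled Aovps1 mutant and 1699 without library 3 labelled Aomdv1 mutant.

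The called loci made up different parts of the transcript pool in the mutants and in WT. The 942 risen loci held 15.4 to 18.9% of the summed FPKM in each mutant library, against 3.1 to 4.31% in each WT library. The 602 fallen loci held 2.55 to 3.74% in the mutant libraries and 11 to 16.5% in the WT libraries. These shares describe loci that were chosen on the same values. A typical risen locus was at a median of 46.2 FPKM in the mutants and 12.3 FPKM in WT, and a typical fallen locus at 2.59 FPKM in the mutants and 20.8 FPKM in WT. A Swiss-Prot or Pfam hit with a stated function was given for 69.7% of risen loci, 51.0% of fallen loci and 66.2% of all tested loci. Hits to uncharacterised proteins or domains of unknown function were not counted. Loci with a locus tag but no annotation of any kind were 17.3% of risen, 28.1% of fallen and 15.4% of all tested loci.

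**Figure D1:**
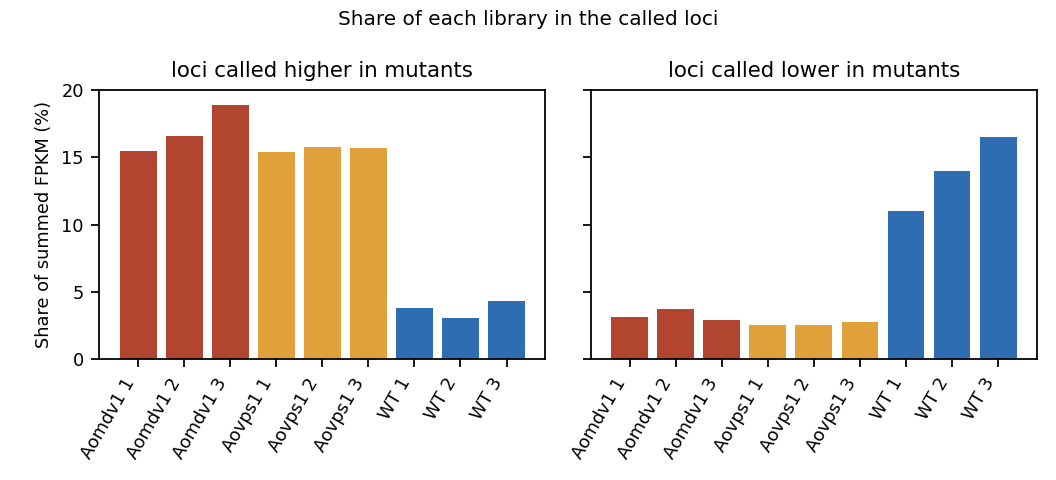
Share of the summed FPKM of each library (%, vertical axis) in the loci called higher (left) and lower (right) in the pooled mutants, one bar per library with Aomdv1 mutant in red, Aovps1 mutant in orange and WT in blue. Risen loci hold 15.4 to 18.9% in the 6 mutant libraries and at most 4.31% in WT, and fallen loci at most 3.74% in the mutants and 11 to 16.5% in WT.

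**Figure D2:**
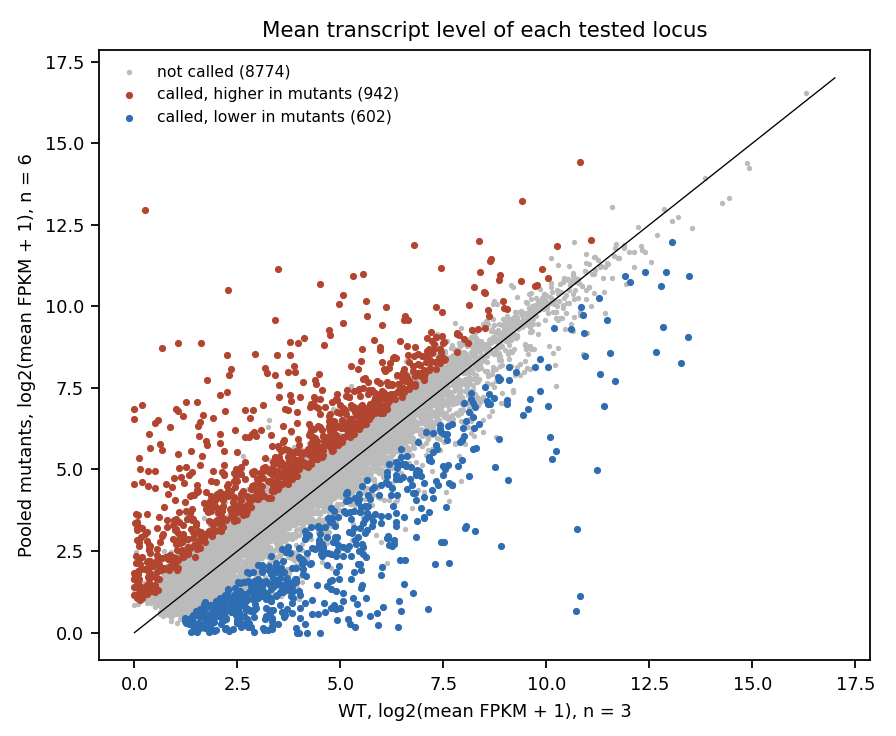
Mean level of each tested locus in the pooled mutants (vertical axis, log2(mean FPKM + 1), n = 6) against WT (horizontal axis, same scale, n = 3), with 942 risen loci in red, 602 fallen loci in blue and loci that were not called in grey. The line marks equal levels, and called loci lie on both sides of it over most of the range of abundance.

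The largest rise among annotated loci was that of AOL_s00076g487, an RTA1-like protein, from a family of fungal membrane proteins with several spans. It had 6269 to 10392 FPKM in the mutants (median 7902), against 0.06, 0.12 and 0.38 FPKM in WT. The transcript was close to absent from WT and among the abundant ones in every mutant library (log2 fold change 12.71, 95% interval 12.22 to 13.2, adjusted p = 3.34e-11). It lies at NW_011645633.1, 1712997 to 1714178, on the plus strand of the RefSeq assembly. The next locus on that scaffold, AOL_s00076g488, encodes catalase B, an enzyme that splits hydrogen peroxide, and had 16.9 to 56.3 FPKM in the mutants (median 24.2), against 0.11, 0.23 and 0.42 FPKM in WT. It too was separated between the groups without overlap (log2 fold change 4.51, 95% interval 3.68 to 5.33, adjusted p = 1.33e-05). Of the 7 tested RTA1-like genes, 4 rose (57.1%, beside 9.13% of all tested loci) and 0 fell, with a median log2 fold change of 1.74 beside 0.19 over all tested loci. The summed level of the 7 was 6956 to 11340 FPKM in the mutant libraries and 65.05 to 165.1 FPKM in the WT libraries.

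Oxidoreductases of the kind used in secondary metabolism were among the other large rises. The FAD-dependent monooxygenase AOL_s00215g259, which inserts oxygen into small molecules, had 1073 to 1796 FPKM in the mutants (median 1366), against 4.24, 3.87 and 3.45 FPKM in WT. All 6 mutant values were over 1000 FPKM while no WT value reached 5 FPKM (log2 fold change 8.19, 95% interval 7.68 to 8.71, adjusted p = 4.17e-09). The FAD-binding monooxygenase AOL_s00043g814 (235.4 ± 61.8 FPKM in the mutants and 3.93 ± 4.03 in WT), the FAD-dependent AOL_s00080g374 (133.3 ± 63.6 FPKM in the mutants and 1.36 ± 1.13 in WT) and the short-chain dehydrogenase AOL_s00110g45 (77.6 ± 35.3 FPKM in the mutants and 0.83 ± 0.2 in WT) rose by 5.83, 5.8 and 5.34 on the log2 scale. Of 22 tested FAD-binding oxidoreductases 8 rose and 1 fell (36.4% and 4.55%, median 1.04). Of 46 short-chain dehydrogenases 10 rose and 1 fell (21.7% and 2.17%, median 0.62), and of 27 cytochromes P450 8 rose and 1 fell (29.6% and 3.7%, median 0.6). Among all tested loci 9.13% rose and 5.83% fell. The 1 fallen FAD enzyme, a xylooligosaccharide oxidase (AOL_s00080g411), was no longer called without WT 2, WT 3 or any of the libraries labelled Aovps1 mutant. Risen P450 genes numbered 5 without WT 1 or without WT 2, and fallen ones 3 without WT 1 and 2 without WT 3. After median-ratio scaling 2 FAD enzymes, 3 dehydrogenases and 2 P450 genes fell. Fallen dehydrogenases numbered 2 without WT 3 and 3 without library 3 labelled Aomdv1 mutant. The summed P450 level was 2948 to 4696 FPKM in the mutants and 978.4 to 1236 FPKM in WT. That sum includes P450 genes of the arthrosporol cluster described next. AOL_s00215g278, AOL_s00215g280 and AOL_s00215g282 averaged 757.1, 761.7 and 827.7 FPKM in the mutants and 91.5, 98.3 and 94.5 FPKM in WT.

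Much of that rise in the summed P450 level lay in the arthrosporol cluster. Its 10 neighbouring genes make farnesylated polyketides of this fungus, and 9 of them rose. Its polyketide synthase AOL_s00215g283, which makes 6-methylsalicylic acid, had 123 to 383 FPKM in the mutants (median 243), against 21, 13.03 and 7.36 FPKM in WT (log2 fold change 4.12, 95% interval 3.25 to 4.99, adjusted p = 3.79e-05). The 10th gene, the FAD-dependent monooxygenase AOL_s00215g279, had a log2 fold change of 1.03 and an adjusted p of 0.0534. The median over the 10 was 2.98, against 0.19 over all tested loci, and their summed level was 3960 to 11660 FPKM in the mutants and 968.2 to 1894 FPKM in WT.

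The other genes of the 12 largest rises have varied annotations. The secreted phospholipase A2 AOL_s00081g9 had 667 to 4895 FPKM in the mutants (median 1586), against 6.03, 9.62 and 14.9 FPKM in WT. Its mutant values spread more than 7-fold and still lay far above WT (log2 fold change 7.37, 95% interval 6.09 to 8.65, adjusted p = 8.8e-06). HSP16 (AOL_s00097g499), a small heat shock protein, which keeps unfolding proteins in solution, had 1094 to 2574 FPKM in the mutants (median 1505), against 28.6, 19.4 and 16.4 FPKM in WT (log2 fold change 6.17, 95% interval 5.51 to 6.83, adjusted p = 3.14e-07). The endoglucanase AOL_s00110g290, which cuts cellulose, had 224 to 518 FPKM in the mutants (median 376), against 2.98, 3.44 and 4.88 FPKM in WT (log2 fold change 6.21, 95% interval 5.55 to 6.86, adjusted p = 3.14e-07). No mutant value of these 3 genes came near a WT value. The RTA1-like AOL_s00054g302 (466.8 ± 143.0 FPKM in the mutants and 1.09 ± 0.26 in WT), the cupin-domain protein AOL_s00004g217 (213.1 ± 124.0 FPKM in the mutants and 2.38 ± 0.92 in WT), the zinc-binding dehydrogenase AOL_s00054g672 (266.7 ± 45.8 FPKM in the mutants and 4.05 ± 1.05 in WT), the beta-lactamase-like AOL_s00140g35 (366.9 ± 131.0 FPKM in the mutants and 6.55 ± 1.84 in WT) and the PLAC8-family protein AOL_s00054g131 (99.5 ± 30.6 FPKM in the mutants and 1.28 ± 1.11 in WT) rose by 7.75, 5.87, 5.73, 5.56 and 5.5 on the log2 scale.

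**Figure D3:**
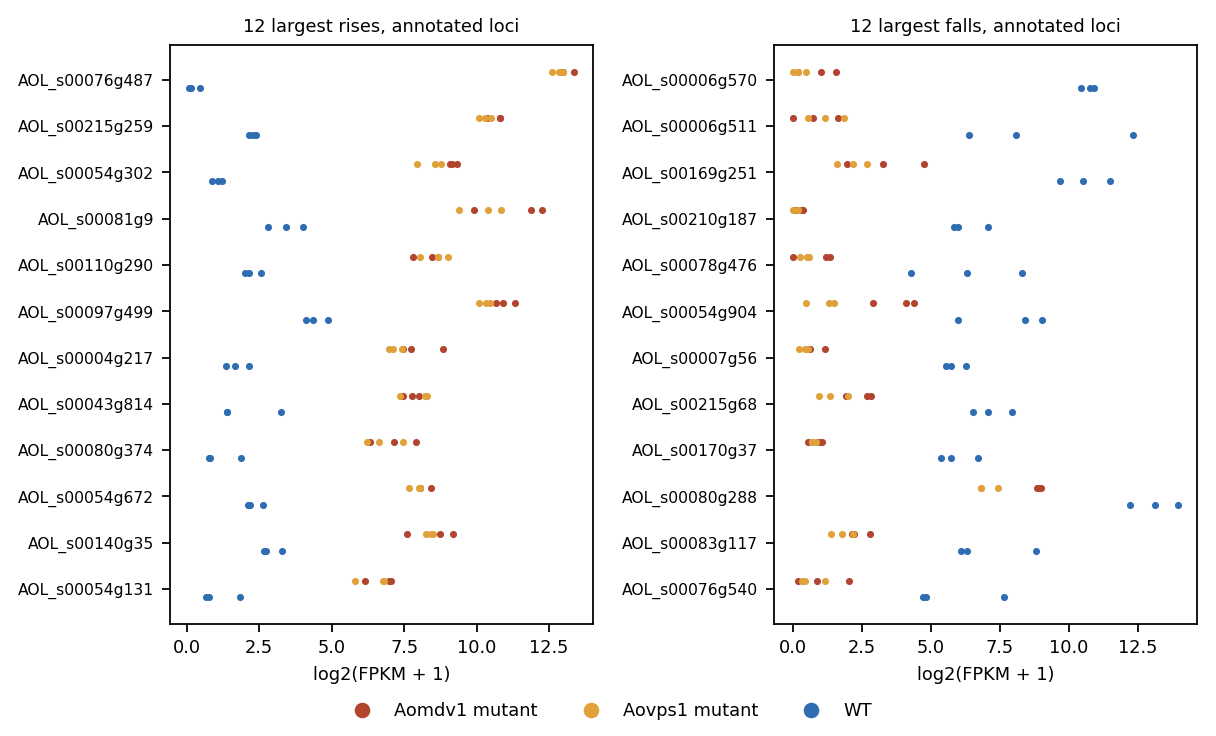
Level of the 12 annotated loci with the largest rise (left) and the 12 with the largest fall (right) in each of the 9 libraries, as log2(FPKM + 1) on the horizontal axis, one point per library with the mutants (red, orange) above WT (blue) in each row. In all 24 rows the 6 mutant points lie apart from the 3 WT points, which the choice of loci required.

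The 2 largest falls among annotated loci were those of a hydrophobin and a lectin. The hydrophobin AOL_s00006g570, a small protein that coats aerial hyphae and spores with a water-repellent layer, had 0 to 1.92 FPKM in the mutants (median 0.26), against 1725, 1909 and 1397 FPKM in WT. It was abundant in every WT library and under 2 FPKM in every mutant library (log2 fold change -10.14, 95% interval -10.95 to -9.32, adjusted p = 4.22e-08). It lies at NW_011645563.1, 1938445 to 1938987, on the plus strand of the RefSeq assembly. The mannose-binding lectin AOL_s00006g511 had 0 to 2.61 FPKM in the mutants (median 0.95), against 82.8, 272 and 5066 FPKM in WT, with WT library 3 far above the other WT libraries (log2 fold change -7.94, 95% interval -10.12 to -5.76, adjusted p = 0.000284). The fruit-body lectin AOL_s00080g288, a sugar-binding protein among the most abundant WT transcripts, had 110.4 to 508 FPKM in the mutants (median 314), against 4761, 8829 and 15724 FPKM in WT (log2 fold change -5.13, 95% interval -6.43 to -3.83, adjusted p = 0.000162). The GLEYA-domain agglutinin AOL_s00083g117 (3.42 ± 1.46 FPKM in the mutants and 197.2 ± 217.0 in WT) and the fucose-specific lectin AOL_s00076g540 (0.12 to 3.02 FPKM in the mutants (median 0.575), against 27.1, 25.3 and 200.1 FPKM in WT) fell by 4.98 and 4.9 on the log2 scale. Of 55 tested genes for surface proteins (hydrophobins, lectins, GLEYA, CFEM and WSC domains), 13 fell (23.6%, beside 5.83% of all tested loci) and 5 rose. The risen count was 3 without WT 2 and 11 without library 3 labelled Aomdv1 mutant. One of the risen, the WSC-domain protein AOL_s00169g79 (11.5 ± 4.21 FPKM in the mutants and 0.23 ± 0.07 in WT), rose by 3.27 on the log2 scale. The 55 genes together held 14570 to 28020 FPKM in the mutants and 31340 to 46920 FPKM in WT.

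The 12 largest falls also took in 3 loci of other kinds. A locus annotated as elongation factor 2 (AOL_s00210g187) had 0 to 0.27 FPKM in the mutants (median 0.125), against 56.1, 62.8 and 132 FPKM in WT (log2 fold change -6.12, 95% interval -6.78 to -5.45, adjusted p = 3.14e-07). A peptidase inhibitor (AOL_s00054g904) had 0.37 to 19.9 FPKM in the mutants (median 4.145), against 62.4, 340.0 and 517 FPKM in WT, and a locus with a pyridoxamine phosphate oxidase domain (AOL_s00215g68) had 0.9 to 6.08 FPKM in the mutants (median 2.87), against 131, 90.01 and 246 FPKM in WT. These last loci fell by 5.37 and 5.22 on the log2 scale, with no overlap between the groups.

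The fallen surface genes were looked at beside genes of spore formation, since hydrophobins also coat conidia. Of 28 tested loci on the keyword list of conidiation and velvet regulators, 1 rose and 1 fell (3.57% each, beside 9.13% and 5.83% of all tested loci). The risen locus had a Swiss-Prot hit to fluG, a regulator upstream of conidiation in Aspergillus nidulans (AOL_s00043g361, 21.5 ± 6.1 FPKM in the mutants and 3.72 ± 1.82 in WT). The fallen locus was the sporulation gene SPO5 (AOL_s00006g324, 1.25 ± 0.65 FPKM in the mutants and 4.99 ± 3.72 in WT). Their log2 fold changes were 2.29 and -1.29. A second locus with a Swiss-Prot hit to fluG, AOL_s00083g274, was not called (20.9 ± 3.13 FPKM in the mutants and 18.4 ± 10.4 in WT). Its log2 fold change was 0.29 (adjusted p = 0.633). The SPO5 call was lost without WT 1, WT 3 and each of 5 mutant libraries, leaving 0 fallen without WT 1, while 3 rose without WT 3 and 2 rose without library 3 labelled Aomdv1 mutant. The 28 loci summed to 786.8 to 930.0 FPKM in the mutants and 862.2 to 1001 FPKM in WT. The keywords also drew in loci that are not conidiation or velvet regulators, such as phospholipase D1 (AOL_s00215g30). The Sec14-type lipid transfer protein AOL_s00083g482 alone held 241.25 to 393.5 FPKM in the mutants and 252.63 to 316.9 FPKM in WT. The sum and the counts are therefore not those of conidiation regulators alone. Whether spores were present in the harvested cultures is not given, and their part in the fall of surface transcripts was not tested.

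Genes for the uptake of phosphate, metals, sugars and amino acids were also among the fallen. The phosphate permease AOL_s00169g251, a high-affinity importer of inorganic phosphate, had 2.02 to 25.9 FPKM in the mutants (median 4.485), against 808, 1458 and 2898 FPKM in WT (log2 fold change -7.82, 95% interval -9.23 to -6.42, adjusted p = 1.16e-05). The phytase AOL_s00169g232, which frees phosphate from phytic acid, had 0 to 0.29 FPKM in the mutants (median 0.105), against 11.2, 42.5 and 65.3 FPKM in WT (log2 fold change -4.87, 95% interval -5.83 to -3.91, adjusted p = 2.3e-05). Both were below every WT value in every mutant library. Of 18 tested loci on the keyword list of phosphate acquisition, 4 fell (22.2%, beside 5.83% of all tested loci) and 0 rose. The summed level of the 18 was 348.8 to 898.9 FPKM in the mutants and 1565 to 4433 FPKM in WT. The keywords also drew in loci of other function, such as triose-phosphate transporters and a phosphotyrosine protein phosphatase (AOL_s00075g152). A second locus with a hit to the same permease, AOL_s00075g117, was low in both groups and not called (log2 fold change 0.2, adjusted p = 0.712). Among 47 genes for metal transport and siderophore synthesis 9 fell (19.1%) and 0 rose. Their summed levels overlapped, at 5780 to 9992 FPKM in the mutants (median 9128) and 7227 to 12230 FPKM in WT (median 7493). The copper transporter AOL_s00078g476 had 0 to 1.5 FPKM in the mutants (median 0.445), against 18.3, 77.1 and 317 FPKM in WT, and the zinc transporter AOL_s00173g355 had 13.5 to 22.1 FPKM in the mutants (median 16.4), against 124, 171 and 96.1 FPKM in WT. They fell by 5.66 and 2.87 on the log2 scale. Fallen metal genes numbered 5 without WT 1 and without library 1 or 3 labelled Aovps1 mutant. Risen ones numbered 4 without WT 3, 4 without library 3 labelled Aomdv1 mutant and 1 without library 2 labelled Aomdv1 mutant, and 1 phosphate gene rose without library 3 labelled Aomdv1 mutant.

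Of 31 sugar transporters 9 fell and 2 rose, with a median of -0.38 beside 0.19 over all tested loci (29.0% fallen beside 5.83%). That median was 0.01 without WT 3, -0.74 without WT 1 and -0.58 without WT 2. The summed levels of the 31 overlapped, at 888.5 to 1252 FPKM in the mutants and 1096 to 2779 FPKM in WT. The glycerophosphoinositol permease AOL_s00076g624 had 2.13 to 3.24 FPKM in the mutants (median 2.765), against 27.4, 46.1 and 59.6 FPKM in WT (log2 fold change -3.51, 95% interval -4.17 to -2.86, adjusted p = 1.43e-05). Of 20 amino acid and ammonium transporters 5 fell (25.0%) and 2 rose. The amino acid permease AOL_s00173g372 (33.4 ± 6.18 FPKM in the mutants and 179.9 ± 86.4 in WT) fell by 2.31 on the log2 scale, and was 1 of these 5. The methionine permease AOL_s00007g56, whose Pfam family is not on that list, had 0.15 to 1.21 FPKM in the mutants (median 0.455), against 76.1, 46.05 and 52.4 FPKM in WT and fell by 5.28. The ammonium transporter AOL_s00080g393 (127.0 ± 51.5 FPKM in the mutants and 52 ± 16.3 in WT) and the cation-chloride cotransporter AOL_s00076g125 (24.6 ± 6.81 FPKM in the mutants and 11.8 ± 0.42 in WT) were the 2 that rose, by 1.23 and 0.96. Neither was called after median-ratio scaling, and each of these calls was lost without any one WT library, any one library labelled Aovps1 mutant or library 2 labelled Aomdv1 mutant (for the ammonium transporter also without its library 1). The 9 fallen sugar transporters numbered 5 without WT 2, and the 2 risen numbered 1 without WT 1, WT 2, library 1 labelled Aomdv1 mutant or any library labelled Aovps1 mutant, and 4 without WT 3. Fallen amino acid transporters numbered 3 without WT 2 or library 1 or 2 labelled Aovps1 mutant, and risen ones 0 without any one WT library, without library 2 labelled Aomdv1 mutant or without any one library labelled Aovps1 mutant, 1 without library 1 labelled Aomdv1 mutant and 4 without its library 3.

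Nitrogen assimilation genes moved in both directions. The nitrate reductase AOL_s00210g163 and the nitrite reductase AOL_s00210g162, neighbouring genes that turn nitrate into ammonium in sequence, both rose. The nitrate reductase had 19.6 to 40.7 FPKM in the mutants (median 30.3), against 3.19, 1.74 and 5.19 FPKM in WT, and the nitrite reductase 24.3 to 57.3 FPKM in the mutants (median 32.9), against 6.56, 4.68 and 5.07 FPKM in WT. Their log2 fold changes were 2.85 (adjusted p = 0.000165) and 2.49 (adjusted p = 0.000351). A second locus annotated as nitrate reductase, AOL_s00007g434, fell by 1.68, with 5.75 to 19.97 FPKM in the mutants (median 7.785), against 25.1, 67.2 and 19.2 FPKM in WT; its groups overlapped, and the call was lost without WT 1, WT 2, library 1 labelled Aomdv1 mutant or any library labelled Aovps1 mutant. Of 21 tested genes of nitrogen metabolism 3 rose and 3 fell (14.3% each, beside 9.13% and 5.83% of all tested loci). Among the fallen, 2 were nitronate monooxygenases (AOL_s00080g271 and AOL_s00080g302, the second not called without WT 1 or WT 2). The risen were 6 without WT 3 and 5 without library 3 labelled Aomdv1 mutant, and 1 fell without WT 2.

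The proteasome, the barrel-shaped protease that digests ubiquitin-tagged proteins, was the list with the most members called for its size among lists of 15 or more tested genes. Of its 42 tested genes 26 (61.9%) rose and 0 fell, beside 9.13% risen among all tested loci, and the median log2 fold change was 0.91. The count was 16 without WT 2, 18 after median-ratio scaling and 21 after quantile normalisation. The alpha-type core subunit AOL_s00081g362 had 443 to 588 FPKM in the mutants (median 474), against 173, 121 and 147 FPKM in WT (log2 fold change 1.75, 95% interval 1.29 to 2.21, adjusted p = 0.000216). The assembly factor AOL_s00193g76, with a Nas2 domain, had 132 to 176 FPKM in the mutants (median 162), against 49.3, 42.99 and 58 FPKM in WT (log2 fold change 1.64, 95% interval 1.16 to 2.11, adjusted p = 0.000408). In 32 of the 42 genes every mutant library lay above every WT library. The 42 genes together held 8145 to 12460 FPKM in the mutants and 3251 to 4717 FPKM in WT.

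Lists of the vacuole and of the routes into it held risen genes in larger shares than the 9.13% of all tested loci, by margins that depended on the scaling. Of 64 genes for the vacuolar proton pump and vacuolar sorting, 13 rose (20.3%) and 2 fell (median 0.61), 1 of the fallen being VPS1. The sorting genes AOL_s00076g674 (137.2 ± 21.8 FPKM in the mutants and 55.7 ± 10.8 in WT) and AOL_s00078g117, which carries the Beclin-type domain of Vps30 (45.1 ± 9.02 FPKM in the mutants and 16.8 ± 3.26 in WT), rose by 1.29 and 1.37 on the log2 scale. Of 102 autophagy genes 15 rose (14.7%) and 1 fell (median 0.48). ATG3 (AOL_s00078g458), the enzyme that attaches Atg8 to membranes, had 99.9 to 116 FPKM in the mutants (median 106), against 26.7, 22.4 and 38.9 FPKM in WT (log2 fold change 1.86, 95% interval 1.35 to 2.37, adjusted p = 0.000285). The mutant values of ATG3 were close together and at least 2-fold over the highest WT value. The 1 fallen member was a cerevisin-type protease (AOL_s00081g154, 0.64 ± 0.14 FPKM in the mutants and 1.99 ± 0.25 in WT), whose call was lost without WT 2. Of 107 endocytosis genes 17 rose (15.9%) and 3 fell (median 0.36), among the risen an ADP-ribosylation factor (AOL_s00097g286, 32.9 ± 21.1 FPKM in the mutants and 1.39 ± 0.57 in WT), a small GTPase of vesicle budding. After median-ratio scaling the risen numbered 7 vacuolar, 9 autophagy and 11 endocytosis genes, against 645 over all tested loci, and after quantile normalisation 8, 12 and 14. Risen vacuolar genes numbered 8 without WT 1 or library 3 labelled Aovps1 mutant, 4 without WT 2 and 30 without library 3 labelled Aomdv1 mutant, and fallen ones 0 without WT 1, WT 2 or library 1 of either mutant and 1 without WT 3, library 2 labelled Aomdv1 mutant or library 3 labelled Aovps1 mutant. Risen autophagy genes numbered 5 without WT 2, 8 without WT 1 or library 1 or 2 labelled Aovps1 mutant, 9 without its library 3 and 39 without library 3 labelled Aomdv1 mutant, with 0 fallen without WT 2. Risen endocytosis genes numbered 7 without WT 2 and 37 without library 3 labelled Aomdv1 mutant.

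On the list for processing in the endoplasmic reticulum 17 of 112 genes rose (15.2%, beside 9.13% of all tested loci) and 3 fell (median 0.52). Of 43 chaperone genes 6 rose and 1 fell (median 0.53). After median-ratio scaling the risen numbered 7 and 3, and after quantile normalisation 10 and 3, against 645 and 747 over all tested loci. The risen share on the list for endoplasmic reticulum processing was thus about that of all tested loci after median-ratio scaling. HSP90 (AOL_s00083g179), the chaperone of kinases and receptors, had 432 to 923 FPKM in the mutants (median 559), against 168, 208 and 63.6 FPKM in WT (log2 fold change 2.15, 95% interval 1.34 to 2.95, adjusted p = 0.00232). BiP (AOL_s00210g337), the HSP70 of the endoplasmic reticulum, had 438 to 842 FPKM in the mutants (median 623), against 381, 295 and 287 FPKM in WT (log2 fold change 0.95, 95% interval 0.42 to 1.49, adjusted p = 0.0233), and was not called after median-ratio scaling (adjusted p = 0.0751) or without WT 2 or any one library labelled Aovps1 mutant. The 1 fallen chaperone was an HSP70-domain gene (AOL_s00170g37) with 0.45 to 1.06 FPKM in the mutants (median 0.685), against 52, 40.4 and 102 FPKM in WT (log2 fold change -5.15, 95% interval -5.84 to -4.45, adjusted p = 1.47e-06). Actin (AOL_s00215g555) had 1831 to 2406 FPKM in the mutants (median 2356), against 927, 892 and 1026 FPKM in WT (log2 fold change 1.25, 95% interval 0.8 to 1.7, adjusted p = 0.00173). The actin-related protein 3 of the Arp2/3 complex (AOL_s00097g79), which nucleates branched actin, had 415.2 ± 48.5 FPKM in the mutants and 170.4 ± 29.7 in WT and rose by 1.29. Actin and Arp3 were among 8 of 83 cytoskeleton genes that rose (9.64%), a share near the 9.13% of all tested loci, and 0 fell (median 0.41), while 2 fell after either scaling. Risen genes of endoplasmic reticulum processing numbered 8 without WT 1, 3 without WT 2, 8, 9 and 8 without libraries 1, 2 and 3 labelled Aovps1 mutant and 45 without library 3 labelled Aomdv1 mutant, with 1 fallen without WT 2. Over all tested loci 538 rose without WT 1, 424 without WT 2 and 1699 without library 3 labelled Aomdv1 mutant. Without WT 2 the risen share of that list lay below the share of all tested loci. Risen chaperones numbered 3 without WT 1, 2 without WT 2 or any library labelled Aovps1 mutant and 13 without library 3 labelled Aomdv1 mutant. Risen cytoskeleton genes numbered 5 without WT 1, 4 without WT 2, 15 without WT 3 and 22 without library 3 labelled Aomdv1 mutant, and 1 fell without WT 3 or library 2 or 3 labelled Aomdv1 mutant.

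**Figure D4:**
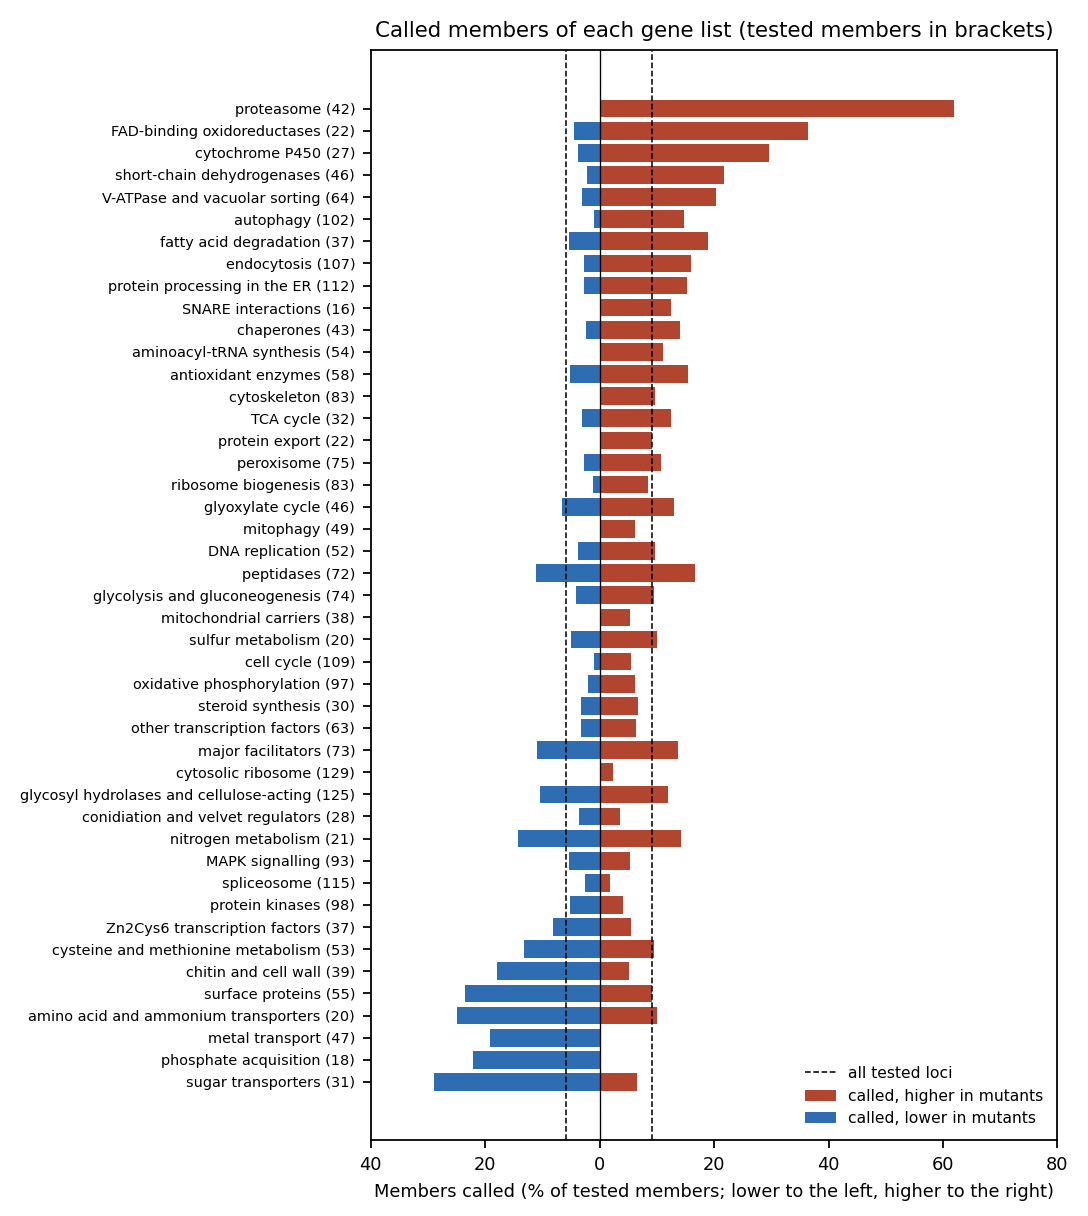
Share of the tested members of each gene list called lower (blue, to the left) and higher (red, to the right) in the pooled mutants, in % of the tested members given in brackets, for lists of 15 or more tested genes. The dashed lines mark the shares over all tested loci, 9.13% risen and 5.83% fallen, and the proteasome bar reaches 61.9%.

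Lists of energy metabolism held calls in shares near or below those of all tested loci, of which 9.13% rose and 5.83% fell, apart from somewhat more risen TCA cycle genes. Of 97 genes for oxidative phosphorylation 6 rose (6.19%) and 2 fell (2.06%), with a median of 0.29 that lay near the 0.19 of all tested loci, and the split was 1 and 2 after median-ratio scaling and 1 and 3 after quantile normalisation. The largest riser on that list, AOL_s00054g672, carries a zinc-binding dehydrogenase domain, and the fallen AOL_s00078g49 is annotated as an F-box protein, so neither is a known subunit of the respiratory chain. The proteolipid AOL_s00075g25 belongs to the vacuolar proton pump, and had 643.0 ± 77.7 FPKM in the mutants and 360.9 ± 31.3 in WT (log2 fold change 0.83, 95% interval 0.38 to 1.28, adjusted p = 0.0195), a call lost without WT 2 or library 3 labelled Aovps1 mutant and after median-ratio scaling (adjusted p = 0.114). The 97 genes together held 36320 to 60110 FPKM in the mutants and 37870 to 40560 FPKM in WT. Of 32 genes of the TCA cycle 4 rose (12.5%) and 1 fell (2 and 1 after median-ratio scaling, 1 and 2 after quantile normalisation). The largest log2 fold change on the TCA list was also 5.73, that of the zinc-binding dehydrogenase AOL_s00054g672. Of 74 genes of glycolysis and gluconeogenesis 7 rose (9.46%) and 3 fell (4.05%). Phosphoenolpyruvate carboxykinase (AOL_s00004g362), the enzyme that commits carbon to glucose synthesis, had 179 to 647 FPKM in the mutants (median 338), against 2195, 2275 and 1441 FPKM in WT. Every mutant value lay below every WT value (log2 fold change -2.59, 95% interval -3.45 to -1.72, adjusted p = 0.00116). Pyruvate carboxylase (AOL_s00054g909), which feeds oxaloacetate to the same route and to the TCA cycle, had 144.8 ± 53.6 FPKM in the mutants and 56.9 ± 16.6 in WT, with overlapping groups, and rose by 1.28 (adjusted p = 0.0313). That call was lost without WT 1, WT 2, library 1 labelled Aomdv1 mutant or any library labelled Aovps1 mutant. Risen oxidative phosphorylation genes numbered 1 or 2 without any one of 6 libraries (WT 1, WT 2, library 1 labelled Aomdv1 mutant and the 3 labelled Aovps1 mutant), 13 without WT 3 and 11 without library 3 labelled Aomdv1 mutant, and 1 fell without WT 2, library 1 labelled Aomdv1 mutant or library 2 or 3 labelled Aovps1 mutant. Risen TCA genes numbered 1 without any of those same 6 libraries, and 2 fell without library 3 labelled Aomdv1 mutant. Risen glycolytic genes numbered 4 without WT 2, 11 without WT 3 and 12 without library 3 labelled Aomdv1 mutant, and 5 fell without WT 1 or library 3 labelled Aomdv1 mutant.

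Loci on the keyword list of mitochondrial fission and fusion were called in about the share of all tested loci. That list is wider than the division genes. It also holds the PRELI-like proteins UPS1 (AOL_s00173g188) and UPS2 (AOL_s00188g63), MGM101 and all the tested loci with a VPS1 hit. Of its 14 tested loci 1 rose and 1 fell (7.14% each, beside 9.13% and 5.83% of all tested loci). The risen gene was MTP18 (AOL_s00079g30), a fission factor of the inner membrane in human cells, with 55.8 to 93.3 FPKM in the mutants (median 87.9), against 20.8, 12.7 and 28.8 FPKM in WT (log2 fold change 1.94, 95% interval 1.28 to 2.6, adjusted p = 0.00122). The fallen gene was VPS1. DNM1 (AOL_s00078g290), the fission dynamin, was at 58.3 ± 14 FPKM in the mutants and 55.6 ± 3.94 FPKM in WT (SD, n = 6 and 3; log2 fold change 0.04, 95% interval -0.53 to 0.6, adjusted p = 0.95). FIS1 (AOL_s00109g118), the outer membrane anchor, was at 130.6 ± 27.7 FPKM in the mutants and 103.3 ± 33.7 FPKM in WT (0.37, -0.25 to 0.99, adjusted p = 0.439). FZO1 (AOL_s00054g413), the mitofusin of the outer membrane, was at 76.97 ± 27.5 FPKM in the mutants and 112.5 ± 50.9 FPKM in WT (-0.54, -1.57 to 0.49, adjusted p = 0.508). A 2-fold change in either direction thus lay outside the intervals of DNM1 and FIS1, while a 2-fold fall lay inside that of FZO1. The mitochondrial genome maintenance gene MGM101 (AOL_s00043g172, 57.23 ± 9.97 FPKM in the mutants and 29.66 ± 15.3 FPKM in WT) missed the threshold at adjusted p = 0.0599. The mitophagy list had 49 tested genes, of which 3 rose (6.12%) and 0 fell (median 0.19), 1 of them a P450 of the arthrosporol cluster (AOL_s00215g280) that the KEGG assignment placed there, and the risen count was 1 after median-ratio scaling and 10 without library 3 labelled Aomdv1 mutant. Risen fission and fusion genes numbered 3 without WT 3 and 2 without library 2 or 3 labelled Aomdv1 mutant, and 0 fell without the 4 libraries on which the VPS1 call rests.

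Cell wall and secreted enzymes moved in both directions. Of 39 genes for chitin and the cell wall 7 fell (17.9%) and 2 rose (5.13%), beside 5.83% fallen and 9.13% risen among all tested loci. The neighbours AOL_s00006g493, a LysM protein that binds chitin, and AOL_s00006g492, a family 18 glycosyl hydrolase, the family of chitinases, fell together. The LysM gene had 1.66 to 6.85 FPKM in the mutants (median 3.055), against 100.5, 102 and 57.9 FPKM in WT, and the hydrolase 0.71 to 2.72 FPKM in the mutants (median 1.51), against 53.4, 57.3 and 20.9 FPKM in WT. They fell by 4.3 (adjusted p = 2.7e-05) and 4.03 (adjusted p = 2.95e-05) on the log2 scale. A glucanosyltransferase that remodels glucan (AOL_s00043g350, 305.5 ± 78.7 FPKM in the mutants and 72.1 ± 39.5 in WT) rose by 2.17. Of 125 glycosyl hydrolases and cellulose-acting enzymes 15 rose and 13 fell (11 and 16 after median-ratio scaling). A family 45 endoglucanase (AOL_s00210g380) had 0.34 to 1.72 FPKM in the mutants (median 0.82), against 34.03, 34.7 and 28.03 FPKM in WT, opposite to the endoglucanase AOL_s00110g290 above (log2 fold change -4.13, 95% interval -4.78 to -3.48, adjusted p = 3.73e-06). Of 72 peptidases 12 rose and 8 fell (7 and 8 after median-ratio scaling), among the risen an aspartic endopeptidase (AOL_s00215g913, 153.9 ± 34.5 FPKM in the mutants and 12.6 ± 4.33 in WT) and among the fallen a serine protease annotated as cuticle-degrading (AOL_s00075g8, 0.98 ± 0.5 FPKM in the mutants and 18.8 ± 8.51 in WT), a kind of enzyme that nematode-trapping fungi use on their prey. Their log2 fold changes were 3.53 and -3.28. The risen peptidases were 16.7% of those tested and the fallen ones 11.1%. Risen wall genes numbered 4 without WT 3 or library 3 labelled Aomdv1 mutant. The 15 risen hydrolases numbered 9 without WT 2, 25 without WT 3 and 26 without library 3 labelled Aomdv1 mutant, and the 13 fallen numbered 6 without WT 2. The 12 risen peptidases numbered 7 without library 1 labelled Aomdv1 mutant, 6 without WT 1 or any one library labelled Aovps1 mutant and 4 without WT 2.

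In the fit of all 9 libraries, regulators and the machinery of gene expression held calls in smaller shares than the 15.0% of all tested loci. Of 129 genes of the ribosome 3 rose and 0 fell (median 0.17), of 115 spliceosome genes 2 rose and 3 fell, of 109 cell cycle genes 6 rose and 1 fell, of 98 protein kinases 4 rose and 5 fell, of 93 MAPK pathway genes 5 rose and 5 fell, and of 37 Zn2Cys6 factors 2 rose and 3 fell. After median-ratio scaling 0 cell cycle genes rose and 2 fell, 1 ribosome gene and 1 spliceosome gene rose, 5 spliceosome genes fell and 2 kinases rose. Among 63 other transcription factors 4 rose and 2 fell, and median-ratio scaling turned that split to 3 and 5. The C2H2 zinc finger gene AOL_s00097g514 had 0.24 to 0.84 FPKM in the mutants (median 0.505), against 10.4, 8.54 and 7.43 FPKM in WT (log2 fold change -2.69, 95% interval -3.19 to -2.18, adjusted p = 1.55e-05). Another C2H2 gene, AOL_s00215g657, went the other way, with 44.2 to 144 FPKM in the mutants (median 85.98), against 14.1, 5.8 and 23.3 FPKM in WT (log2 fold change 2.58, 95% interval 1.63 to 3.54, adjusted p = 0.00213). The Zn2Cys6 factor AOL_s00007g302 (0.7 ± 0.47 FPKM in the mutants and 15.2 ± 5.96 in WT) fell by 3.24. These counts were small and moved with single libraries. With each library left out in turn, the risen counts lay between 1 and 23 for kinases, 2 and 19 for MAPK genes, 0 and 14 for cell cycle genes, 0 and 6 for Zn2Cys6 factors, 2 and 8 for the other factors, 1 and 5 for the spliceosome and 0 and 4 for the ribosome. Without library 3 labelled Aomdv1 mutant 23 kinases, 19 MAPK genes, 14 cell cycle genes, 6 Zn2Cys6 factors, 8 other factors and 5 spliceosome genes rose, and without WT 2 the counts were 1, 2, 0, 0, 2 and 1. Over all tested loci 1699 rose and 770 fell without library 3 labelled Aomdv1 mutant. In that setting kinases, MAPK genes and Zn2Cys6 factors no longer held calls in smaller shares than all tested loci. Without WT 3, 10 kinases, 5 Zn2Cys6 factors and 7 other factors rose.

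Among the remaining lists, antioxidant enzymes (9 rose and 3 fell of 58), fatty acid degradation (7 and 2 of 37), aminoacyl-tRNA synthesis (6 and 0 of 54), glyoxylate metabolism (6 and 3 of 46), peroxisome (8 and 2 of 75), ribosome biogenesis (7 and 1 of 83), DNA replication (5 and 2 of 52) and other major facilitators (10 and 8 of 73) held 5 or more risen genes, in shares of 8.43 to 18.9% beside 9.13% of all tested loci. Cysteine and methionine metabolism had 5 risen and 7 fallen of 53 (9.43% and 13.2%), beside 9.13% and 5.83% of all tested loci. Polyketide, peptide and terpene synthesis had 4 and 3 of 10 (40.0% and 30.0%). Its keywords take in 2 risen genes of the arthrosporol cluster described above, AOL_s00215g283 and the 6-methylsalicylic acid decarboxylase AOL_s00215g281. Sulfur metabolism (2 and 1 of 20), steroid synthesis (2 and 1 of 30), mitochondrial carriers (2 and 0 of 38), protein export (2 and 0 of 22) and SNARE proteins (2 and 0 of 16) held few. Among the antioxidant genes, the thioredoxin reductase AOL_s00054g257 had 101 to 204 FPKM in the mutants (median 123), against 19.1, 26.4 and 14.4 FPKM in WT (log2 fold change 2.77, 95% interval 2.11 to 3.43, adjusted p = 9.78e-05), while the abundant thioredoxin AOL_s00097g110 (2124 ± 733.0 FPKM in the mutants and 5406 ± 2080 in WT) fell by 1.33 with overlapping groups, a call lost without WT 2, WT 3 or any library labelled Aovps1 mutant. Median-ratio scaling gave 4 risen and 5 fallen genes for glyoxylate metabolism, 8 and 12 for major facilitators, 2 and 3 for DNA replication, 2 and 3 for polyketide, peptide and terpene synthesis and 0 and 5 for steroid synthesis, so that their balance turned, and it gave 4 risen genes for fatty acid degradation, 3 for cysteine and methionine metabolism, 1 for sulfur metabolism and 2, with 2 fallen, for ribosome biogenesis. It left 0 risen genes for SNARE proteins, protein export and mitochondrial carriers. With each library left out in turn, the risen counts lay between 4 and 13 for antioxidant enzymes, 4 and 9 for fatty acid degradation, 1 and 17 for aminoacyl-tRNA synthesis, 3 and 11 for the peroxisome, 3 and 10 for ribosome biogenesis and 4 and 15 for major facilitators, with the highest count for aminoacyl-tRNA synthesis without library 3 labelled Aomdv1 mutant and the lowest without WT 2. Loci without a locus tag, 1242 of those tested, rose in 56 cases (4.51%) and fell in 65 (5.23%). The risen ones numbered 29 to 100 with each library left out in turn.

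Several of the most abundant transcripts that changed have no known domain. AOL_s00078g205 had 9505 to 57005 FPKM in the mutants (median 14780.0), against 2657, 529 and 2205 FPKM in WT (log2 fold change 3.62, 95% interval 2.26 to 4.98, adjusted p = 0.00232). Library 3 labelled Aomdv1 mutant was the highest of its 6 mutant values by more than 2-fold. AOL_s00080g257 had 3256 to 4452 FPKM in the mutants (median 3745), against 107, 105 and 114 FPKM in WT, with little spread in either group (log2 fold change 5.1, 95% interval 4.67 to 5.54, adjusted p = 5.16e-08). AOL_s00054g210, with a domain of unknown function (9519 ± 4890 FPKM in the mutants and 672.7 ± 265.0 in WT), and the peptidase inhibitor AOL_s00076g558 (4123 ± 2210 FPKM in the mutants and 326.7 ± 151.0 in WT) rose by 3.75 and 3.59. On the falling side stood AOL_s00169g257 (528.9 ± 268.0 FPKM in the mutants and 11080 ± 10200 in WT), AOL_s00188g280 (665.1 ± 371.0 FPKM in the mutants and 7262 ± 2420 in WT) and AOL_s00169g241 (387.4 ± 198.0 FPKM in the mutants and 6424 ± 3300 in WT), which fell by 4.2, 3.61 and 4.01 on the log2 scale. Among unannotated loci AOL_s00079g331 had 211 to 877 FPKM in the mutants (median 344), against 0, 0.52 and 1.23 FPKM in WT (log2 fold change 7.97, 95% interval 7.03 to 8.91, adjusted p = 5.12e-07), and AOL_s00004g51 had 8.21 to 68.6 FPKM in the mutants (median 25.6), against 811, 3083 and 3349 FPKM in WT (log2 fold change -6.3, 95% interval -7.7 to -4.91, adjusted p = 5.48e-05). Of 1589 tested loci with a tag but without any annotation 163 rose and 169 fell (10.3% and 10.6%, beside 9.13% and 5.83% of all tested loci). The risen ones numbered 99 without WT 1, 87 without WT 2 and 281 without library 3 labelled Aomdv1 mutant.

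Some loci were listed at 0 in a whole group. Of the fallen loci 4 were at 0 in all 6 mutant libraries, AOL_s00006g561, AOL_s00079g278, AOL_s00110g306 and AOL_s00188g276, and their WT values were between 5.5 and 35.6 FPKM. Of the risen loci 8 were at 0 in all 3 WT libraries, among them AOL_s00075g45 at 84.25 to 147.29 FPKM and AOL_s00006g506 at 31.83 to 167.16 FPKM in the mutants. None of these 6 loci carries a Swiss-Prot or Pfam hit, and they were picked out after their values were seen.

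The pooled comparison was set beside the difference between the 2 mutants. Each mutant was also compared with WT alone, which called 1015 loci (9.84%) for Aomdv1 and 1426 (13.8%) for Aovps1, in 2 comparisons that share the WT libraries. Between the libraries labelled Aovps1 mutant and those labelled Aomdv1 mutant 0 loci (0%) were called by limma, at a smallest adjusted p of 0.0612, with 978 loci at an unadjusted p under 0.05. The number of called loci rose from 0 to 24 without library 1 labelled Aomdv1 mutant, to 2 without its library 3 and to 4 without WT 3. In all 1544 pooled calls the means of both mutants lay on the same side of the WT mean, a pattern that the pooling favours. The difference between the mutants was under 1 on the log2 scale in 1453 of the pooled calls (94.1%). Its 95% interval lay within 1 of zero in 543 of them (35.2%), so for the others a 2-fold difference between the mutants lay inside the interval or at its edge. That interval reached a median of 0.86 to either side of the estimate, against 0.77 for the pooled difference from WT.

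**Figure D5:**
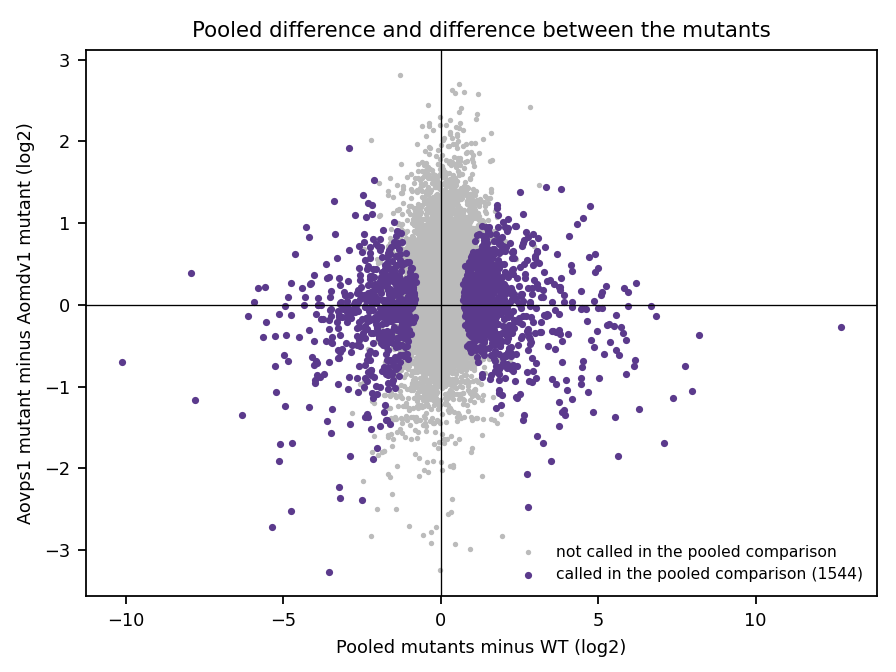
Difference between the mutants (vertical axis, Aovps1 mutant minus Aomdv1 mutant, log2) against the pooled difference from WT (horizontal axis, log2) for each tested locus, with the 1544 loci called in the pooled comparison in purple and the others in grey. Most purple points lie within 1 of the horizontal zero line, and 0 loci pass the threshold for the difference between the mutants.

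Called loci were looked at by position. Of the 1544, 525 (34.0%) had a neighbouring tested locus called in the same direction, and 16 runs of 4 or more such loci (9 risen, 7 fallen) held 67 loci. A risen neighbour was found for 33.7% of risen loci and 15.2% of all other tested loci, and a fallen neighbour for 34.6% of fallen loci and 9.51% of all other tested loci, with no test. The longest run had 6 fallen loci around the methionine permease AOL_s00007g56, at NW_011645564.1, 157692 to 167933. Its neighbour AOL_s00007g55, of unknown function, had 0 to 1.07 FPKM in the mutants (median 0.59), against 104, 62.1 and 95.4 FPKM in WT (log2 fold change -5.82, 95% interval -6.49 to -5.14, adjusted p = 4.91e-07). A run of 4 risen loci held a cation-transporting ATPase (AOL_s00054g648, 26.8 ± 6.1 FPKM in the mutants and 4.54 ± 1.27 in WT), the transporter AOL_s00054g649 (73 ± 35.9 FPKM in the mutants and 7.45 ± 4.15 in WT), an alkyltransferase-like protein (AOL_s00054g650, 68.6 ± 26.4 FPKM in the mutants and 18.2 ± 17.1 in WT) and the unannotated AOL_s00054g651 (63.5 ± 26.8 FPKM in the mutants and 1.98 ± 1.73 in WT). Another began with the short-chain dehydrogenase AOL_s00110g45 and ended with a second one, AOL_s00110g48 (73.1 ± 34.8 FPKM in the mutants and 4.39 ± 3.03 in WT). The arthrosporol cluster made up a pair of runs, parted by AOL_s00215g279, which was not called. Several runs held calls that were lost when 1 library was left out. The call of AOL_s00054g650 was lost without WT 1 or WT 2. In a run of 4 from AOL_s00054g907 to AOL_s00054g913, each call was lost without at least 1 library. The runs of AOL_s00007g56 and AOL_s00110g45 kept all their calls.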

How the data were processed

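Total RNA of hyphae was sequenced in 9 libraries with standard Illumina protocols, per the labels' protocols. The authors deposited 1 table of FPKM values (fragments scaled to locus length and library size), given to 2 decimals for 12901 loci. The aligner, counting program and genome build are each not given in the sources used here. All 11144 loci with a tag had the same start and end as in the RefSeq assembly AOL24927, whose scaffold names are used. Functions come from the table's own Swiss-Prot, Pfam and KEGG columns. Fragment counts were not used. The depth estimate used the smallest steps between FPKM values of loci under 700 bp, with 68 to 81.5% of values within 0.1 of a whole number (157 values in library 3 labelled Aomdv1 mutant, 428 to 517 in the others).

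Values were analysed as log2(FPKM + 1), which understates changes of low loci. The filter kept a locus when 3 or more libraries reached FPKM 1. The 6 mutant libraries were compared with the 3 WT libraries in 1 two-group fit with limma 3.58.1 in R 4.3.3 (trend, two-sided moderated test), with Benjamini-Hochberg adjustment over 10318 loci and a threshold of 0.05. The difference between the mutants and each mutant against WT came from a fit of 3 groups. Fold changes are mutants over WT, and errors are SDs over 6 mutant and 3 WT libraries. The targeted genes were also tested by exact permutation (scipy 1.17.1). The procedure was tested on simulated data.

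In all, 51 gene lists were built from KEGG maps and annotation keywords. The members and lists were chosen with earlier results of these data known. A called member is one past the threshold. Genes were named by rule among called loci: the 12 largest rises and falls among annotated loci with a mean of at least 5 FPKM in 1 group and no overlap, the 5 largest differences in mean FPKM each way, the 2 risen and 2 fallen members of each list with the smallest adjusted p, where it had them, the 3 largest unannotated changes each way, and MDV1 and VPS1. Up to 5 loci each way with a called difference between the mutants were also allowed, and there were none. Other members of the fission, conidiation, phosphate and arthrosporol lists, further VPS1-like genes, loci listed at 0 and members of runs were named after their values were seen. The settings varied were the pseudocount (0.1), no filter, a mean of 5 FPKM, median-ratio scaling, quantile normalisation, a replicate block, the 3-group fit, no trend and leaving out each library.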

Additional observations from a re-analysis of the deposited data

Results flagged for a closer look

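Within the 6 mutant libraries, 1 value stood apart from the other 5 by Dixon's criterion at 6 of the 162 loci named by the rule (3.7%), where chance flags about 1 in 20 groups. Library 3 labelled Aomdv1 mutant was the library that stood apart at 4 of them. It was low for a protein kinase of the list for processing in the endoplasmic reticulum (AOL_s00109g131), at 0.62 FPKM, against 6.42 to 7.35 FPKM in the other 5. It was also low for the ribosome biogenesis ATPase RIX7 (AOL_s00054g152), at 144.37 FPKM, against 216.1 to 260.2 FPKM, and for actin (AOL_s00215g555), at 1830.68 FPKM, against 2215 to 2406 FPKM. It was high for the short-chain dehydrogenase AOL_s00110g45, at 148.01 FPKM, against 50.12 to 73.65 FPKM. Library 2 labelled Aovps1 mutant was high for HSP90 (AOL_s00083g179), at 923.48 FPKM, against 432.1 to 566.3 FPKM. Library 1 labelled Aomdv1 mutant had 0.15 FPKM of a nitronate monooxygenase (AOL_s00080g271), against 0 to 0.05 FPKM.

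Over all 10318 tested loci the same criterion picked 2110 (20.4%), and library 3 labelled Aomdv1 mutant was the library standing apart at 1761 of them, library 2 labelled Aomdv1 mutant at 278, and the other 4 mutant libraries at 2 to 31 each. The calls of the 6 named loci were kept without library 3 labelled Aomdv1 mutant.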

How the results depend on the processing

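The pooled comparison called 1544 loci (942 risen, 602 fallen). Leaving out each library in turn gave 828 to 2469 calls, with 424 to 1699 risen and 404 to 770 fallen loci; WT 2 gave the lowest count and library 3 labelled Aomdv1 mutant the highest. Without both WT 3 and library 3 labelled Aomdv1 mutant, an alternative chosen after seeing the data, 3675 loci were called (2685 risen, 990 fallen). A mean level of 5 FPKM or more left 354 fallen loci. Between the mutants, 0 loci were called, against 0 to 24 with each library left out in turn (0 to 3 among the pooled calls), 1 without the filter, 1 after median-ratio scaling, and 55 (8 among the pooled calls) without WT 3 and library 3 labelled Aomdv1 mutant together. The VPS1 log2 fold change was -1.10 and lay between -1.22 and -0.94 with each library left out, and that of MDV1 was -0.08 and lay between -0.15 and 0.01. The cause of these moves was not tested. Of the calls under the other settings, 1488 of the pooled calls were kept with a pseudocount of 0.1, 1247 after median-ratio scaling, 1287 after quantile normalisation, 1471 in the 3-group fit and 1490 without a trend. Over 160 called loci named by the rule and all settings, 2606 values kept direction and side of the threshold and 258 kept only the direction. The replicate block called 1314 loci, 1282 of them shared with the fit without it. Deviations of same-numbered libraries from their group means gave mixed correlations. They ran from -0.009 to 0.387 for WT with either mutant and from -0.283 to -0.034 between the mutants. Other pairs ran from -0.275 to 0.278. These values do not settle whether the numbers mark pairs, and the numbers are taken as names. The estimated depth limits mainly loci near 1 FPKM, where values rest on few fragments.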
